A study of Mus musculus with 13 samples.

Results

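STAG2 sites without CTCF that were lost in quiescence are places in the genome of NU1 cells where STAG2 was called in proliferating cells and not in quiescent ones, and where CTCF was called in neither state. The peaks of 12 lists on chromosomes 1 to 19 were merged into 112325 sites wherever they shared at least 1 bp. Sites were kept when they held a STAG2 peak in both proliferating libraries, in neither quiescent library and a CTCF peak in none of the 4 CTCF libraries, which left 1824. They are called the lost sites here. NU1 is a mouse urothelial line, wild type per its labels, that became immortal through passaging. STAG2, STAG1 and CTCF were each mapped by ChIP-seq, the sequencing of DNA precipitated with an antibody, in 2 quiescent and 2 proliferating libraries. Quiescent cells had been grown to confluence and then kept in complete medium, which contains EGF, with 1 uM of the PPAR gamma agonist rosiglitazone and 0.5 uM of the EGF receptor inhibitor erlotinib, so confluence and both drugs are shared by all quiescent libraries and cannot be told apart. Proliferating cells received neither drug. The labels call the replicates biological and say nothing more of how they were separated, and every library comes from this single line.

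Cohesin is a ring of SMC1, SMC3 and RAD21 that holds sister chromatids together and extrudes loops of DNA. Each ring carries either STAG1 or STAG2. CTCF, a zinc finger protein bound to its own DNA motif, stops moving cohesin, so most cohesin peaks lie on CTCF sites. Cohesin peaks without CTCF are known mainly from enhancers and active promoters, where cohesin with STAG2 is the more common form and where the loader NIPBL and transcription factors are also found. STAG2 is a tumour suppressor gene that is often mutated in bladder cancer. The study asks how STAG2 acts with DREAM, the complex that represses cell cycle genes through CHR and E2F elements of their promoters.

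Promoters were a minor location of the lost sites, and the DNA of 5 of them is shown because these are the places where a lost site lies on the start of a gene. Each window runs from 250 bases before to 50 bases after the start, from RefSeq on GRCm38.p6, the assembly also called mm10, 5′ to 3′ on the gene's strand. Pot1a encodes a telomere protein of the shelterin complex, Pbxip1 a partner of PBX homeodomain proteins and Nuf2 a kinetochore subunit bound by DREAM. The first 3 are the strongest lost sites on a promoter, Pbxip1 is the strongest of them with STAG1 in all 4 libraries, and Nuf2 is the promoter from the cell cycle gene lists. They were chosen after their values were seen. Capitals mark the motifs searched, on either strand.
Pot1a, chr6:25809169-25809468, minus strand: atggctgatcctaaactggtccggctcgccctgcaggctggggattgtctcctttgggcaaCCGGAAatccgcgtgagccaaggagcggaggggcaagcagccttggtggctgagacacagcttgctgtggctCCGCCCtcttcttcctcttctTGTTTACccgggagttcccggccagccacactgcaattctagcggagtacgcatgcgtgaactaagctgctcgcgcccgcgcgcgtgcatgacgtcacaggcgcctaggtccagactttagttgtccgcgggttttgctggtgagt
Gm14434, chr2:176486700-176486999, minus strand: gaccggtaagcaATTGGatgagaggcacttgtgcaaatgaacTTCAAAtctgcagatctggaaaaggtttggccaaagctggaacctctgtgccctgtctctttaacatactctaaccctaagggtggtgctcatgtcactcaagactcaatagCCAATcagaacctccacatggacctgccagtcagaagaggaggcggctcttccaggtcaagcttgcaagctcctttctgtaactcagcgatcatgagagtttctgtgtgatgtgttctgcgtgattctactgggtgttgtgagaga
Gm4631, chr2:175338172-175338471, minus strand: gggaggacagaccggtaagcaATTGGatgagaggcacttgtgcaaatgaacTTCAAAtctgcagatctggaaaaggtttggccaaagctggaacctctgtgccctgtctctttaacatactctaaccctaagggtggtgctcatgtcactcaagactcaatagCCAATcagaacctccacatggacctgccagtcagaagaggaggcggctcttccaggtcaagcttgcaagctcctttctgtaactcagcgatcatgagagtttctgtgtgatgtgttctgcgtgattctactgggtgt
Pbxip1, chr3:89436454-89436753, plus strand: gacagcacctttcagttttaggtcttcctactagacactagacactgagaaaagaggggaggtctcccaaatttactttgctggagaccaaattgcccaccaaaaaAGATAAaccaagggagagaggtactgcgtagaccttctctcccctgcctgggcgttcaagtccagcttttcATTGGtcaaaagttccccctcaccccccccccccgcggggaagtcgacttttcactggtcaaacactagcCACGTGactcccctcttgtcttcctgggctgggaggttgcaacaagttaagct
Nuf2, chr1:169531415-169531714, minus strand: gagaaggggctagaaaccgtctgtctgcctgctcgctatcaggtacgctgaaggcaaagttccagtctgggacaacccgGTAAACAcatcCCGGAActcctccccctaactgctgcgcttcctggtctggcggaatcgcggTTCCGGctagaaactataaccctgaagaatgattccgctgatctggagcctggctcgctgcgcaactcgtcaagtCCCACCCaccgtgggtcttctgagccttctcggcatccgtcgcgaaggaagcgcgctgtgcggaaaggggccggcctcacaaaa
In the Pot1a window the capitals are an ETS core (CCGGAA), a KLF/SP box (GGGCGG, read on the other strand) and a forkhead core (TGTTTAC). The Gm14434 and Gm4631 windows hold a CHR element (TTTGAA, on the other strand) and a pair of CCAAT boxes. Those windows are copies: 291 of 291 aligned bases were identical at an offset of 9 bases, so reads from one could have been placed on the other and both sites are uncertain. Pbxip1 holds a GATA core (AGATAA), then one box of the CCAAT kind and then an E-box (CACGTG), and Nuf2 a forkhead core, a KLF box (CCCACCC) and a pair of ETS cores. Neither a CHR element nor an E2F site (TTGGCGC) was among the letters of the Nuf2 window.

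The STAG2 peaks of these 5 promoters lay below the middle of their lists by height, with mean percentiles by fold between 27.2 for Nuf2 and 43.8 for Pot1a, where 50 is the middle peak. Fold enrichment is the authors' ratio of signal to background at a peak and is used here only to describe peaks within a list. Pot1a had STAG2 folds of 8.06 and 5.67 in the proliferating libraries, with STAG1 peaks of fold 5.04 in quiescent replicate 2 and 7.05 in proliferating replicate 2. Gm14434 had STAG2 folds of 6.99 and 6.49 in the proliferating libraries and Gm4631 had 6.49 and 6.49, both with no STAG1 peak in any library. Pbxip1 had STAG1 folds of 4.74 and 4.74 in quiescent cells, against 4.74 and 7.91 in proliferating cells, so STAG1 was still called there while STAG2, at 4.74 and 6.04 in the proliferating libraries, was not. Nuf2 had STAG2 folds of 5.34 and 5.34 in the proliferating libraries, with 1 STAG1 peak, of fold 4.50 in proliferating replicate 2.

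The choice of the sites set the STAG2 pattern, which is given as a description with no test. Of 33725 STAG2 sites called in both proliferating libraries, 3455, or 10.2%, were called in neither quiescent library. Among the 5352 of them without CTCF the share was 34.1%. By the number of CTCF libraries with a peak at the site, the lost share was 34.1% with none, 15.6% with 1, 11.9% with 2, 10.3% with 3 and 3.87% with all 4. The step between none and 1 CTCF library was thus the largest of the 4 steps. The opposite pattern, STAG2 in both quiescent and neither proliferating library without CTCF, was found at 247 sites.

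More sites without CTCF were lost than gained, and the proliferating STAG2 lists were also the longer ones. The STAG2 lists held 38407 and 34281 peaks in quiescent cells, against 47295 and 45582 in proliferating cells. With the 20000 peaks of highest fold in every library, 526 sites without CTCF were lost and 531 were gained, a choice that equalises the lists and also keeps their strongest peaks only. With peaks of a -log10 q of at least 5, 1181 were lost and 339 gained. The part of list length in the excess was not tested apart from that of peak strength. Without proliferating STAG2 replicate 1 the rule kept 7519 sites, and without replicate 2 it kept 6100, since 1 library then sufficed. Depth is unknown, because the lists hold no read totals, and a site with no peak may still be bound below the caller's threshold. Fewer cells with the site bound and less binding per cell cannot be told apart.

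The lost sites were weak peaks in proliferating cells. Their STAG2 folds in proliferating replicate 1 ran from 2.50 to 17.5 with a median of 5.49, and in replicate 2 from 2.33 to 17.5 with a median of 5.34. The 2204 sites without CTCF that were kept in both quiescent libraries, called the kept sites, had medians of 7.98 and 6.99. Ranked by fold within a list, where 50 is the middle peak, the lost sites had median percentiles of 25.9 and 31.0, and the kept sites 49.5 and 50.2. Another 1324 sites without CTCF held STAG2 in 1 quiescent library, with median percentiles of 34.3 and 36.8. Split by strength, the mean percentile over both proliferating libraries, into quintiles of all sites without CTCF, the share lost was 53.1%, 48.2%, 35.6%, 24.7% and 9.06% upward from the weakest. Loss was more frequent among weak sites, and 97 sites of the strongest quintile were lost too.

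At the edge of the rule the peaks were close to the caller's floor. The 3 weakest lost sites lay at an end of Oas1d, a member of the oligoadenylate synthetase family, inside Col2a1, a cartilage collagen, and nearest to Gjb6, a connexin. Their STAG2 folds were between 2.50 and 3.34. Just outside, sites nearest to Itgb4, the integrin of hemidesmosomes, at the shared end of Mgrn1 and Nudt16l1, and nearest to Frmd8 had a single quiescent STAG2 peak of fold 2.60, 2.67 and 2.75, each in replicate 1. Over all 1324 sites with 1 quiescent peak, the peak was in replicate 1 at 773 and in replicate 2 at 551.

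The calls that make up the rule varied between replicates, as a description of the choice and no support for it. Sites with STAG2 in proliferating replicate 1, not in quiescent replicate 1 and without CTCF numbered 6866, and in the libraries numbered 2, 26.6% of them, which are the 1824 lost sites, were proliferating only, 3.99% quiescent only, 8.03% in both and 61.4% in neither. Chosen on the libraries numbered 2, 8669 sites gave 21.0%, 5.48%, 8.92% and 64.6% in the libraries numbered 1. Most sites chosen on 1 pair were thus not called in the other pair at all. The opposite choice, quiescent only, was found again at 8.89% and 17.3%, against 17.1% and 19.2% that turned to proliferating only. STAG2 summits of the replicates lay within 100 bp of each other at 68.1% of the lost sites, against 75.2% of the kept sites.

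STAG1, whose peaks the rule did not use apart from merging, was called at fewer of the lost sites in quiescent than in proliferating cells. A STAG1 peak was called at 7.46% and 9.54% of the 1824 sites in the quiescent libraries, against 24.9% and 40.5% in the proliferating libraries. Both quiescent libraries lay below both proliferating ones, and the difference was -24.2 percentage points (8.50 ± 1.47% in quiescent and 32.7 ± 11.0% in proliferating cells, SD, n = 2 each; two-sided exact permutation p = 0.33, the smallest that 2 libraries against 2 allow). The test therefore could not pass 0.05. Over all 112325 sites the STAG1 shares were 29.6% and 30.6% in quiescent cells, against 32.6% and 42.4% in proliferating cells, a difference of -7.40 points. The lost sites were thus near all sites in proliferating cells and below them in quiescent cells. Proliferating replicate 2, the highest of the 4, also had the longest STAG1 list with 50468 peaks, and the others held between 35594 and 38857. Without it the difference was -16.4 points. With the wider choices made without proliferating STAG2 replicate 1 or 2 it was -10.5 and -13.2 points.

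Kept sites held STAG1 far more often in every library. Their STAG1 shares were 49.5% and 57.4% in quiescent cells, against 66.8% and 85.2% in proliferating cells. The lost sites lay below the kept ones by 41.9 to 47.8 points in each of the 4 STAG1 libraries, with a mean difference of -44.1 points (exact permutation p = 0.12 by sign flips within the 4 libraries, two-sided and as low as 4 can give). In the proliferating libraries alone the mean was -43.3 points, and averaged over the quintiles of STAG2 strength it was -32.1 points. Each quintile spans a range of strength, the strongest from a mean percentile of 55.5 to 96.8. The part of strength in the remaining gap was not tested. In points, STAG1 changed about as much at lost as at kept sites: the change was -24.2 at the lost and -22.6 at the kept sites, a difference of -1.61 points (exact permutation p = 0.667). That small difference turned to 11.5 and 7.78 points without proliferating STAG2 replicate 1 or 2, and to 1.28 points without quiescent STAG1 replicate 2. As a ratio, the quiescent share was 26.0% of the proliferating share at lost sites and 70.3% at kept sites (difference of the log2 ratios -1.41, exact permutation p = 0.33, a scale chosen after the data were seen).

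**Figure D1:**
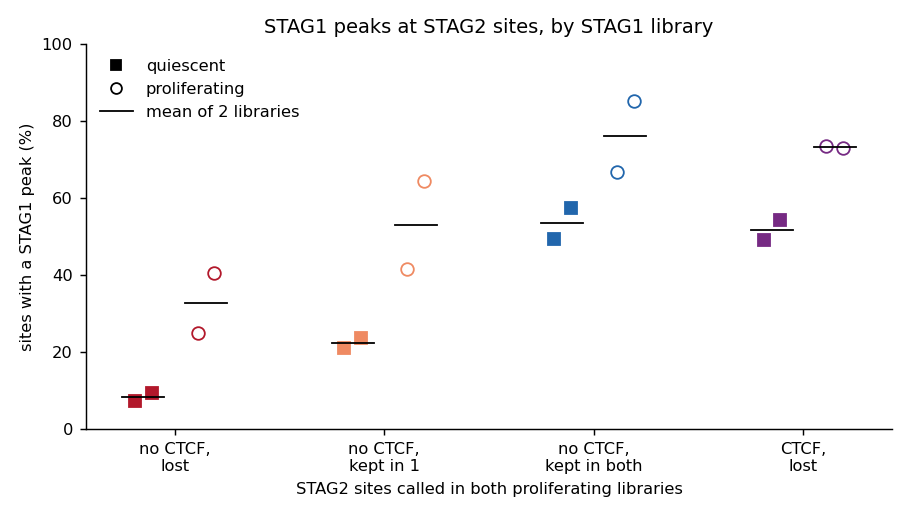
Share of STAG2 sites with a STAG1 peak (vertical axis, %), for lost, partly kept and kept sites without CTCF and for lost sites with CTCF. Each symbol is 1 STAG1 library, filled squares quiescent and open circles proliferating, and lines are means of 2 libraries. Lost sites without CTCF lie lowest in both states, at 7.46% and 9.54% in quiescent cells and 24.9% and 40.5% in proliferating cells.

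Most lost sites carried little STAG1. None was called in any of the 4 STAG1 libraries at 799 sites, or 43.8%, against 6.81% of the kept sites. Exactly 1 library had it at 656 lost sites. STAG1 in proliferating libraries only was found at 752 lost sites, 41.2%, and in quiescent libraries only at 79, 4.33%. At partly kept sites these shares were 44.8% and 5.06%, and at kept sites 24.3% and 2.81%. Over all STAG2 sites of both proliferating libraries they were 10.6% and 1.21%. At 23 lost sites STAG1 was called in all 4 libraries, and at 4 it was in both quiescent and neither proliferating library, which is 0.219% beside 0.309% of all 112325 sites. The share over all sites was taken whatever STAG2 did there. At partly kept and kept sites the share was 0.529% and 0.544%, from 7 and 12 sites, so these counts too are small.

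Where STAG1 was called in both proliferating libraries at a lost site, it was usually called in neither quiescent library of the full lists. These STAG1 peaks were mostly weak, with a median fold percentile of 29.4. Of 246 lost sites with STAG1 in both proliferating libraries, 171, or 69.5%, had it in neither quiescent library (exact binomial 95% interval 63.4% to 75.2%, which covers counting error over sites only), 52 in 1 and 23 in both. Over all sites with STAG1 in both proliferating libraries the share was 7.72%. It was 49.5% of 406 partly kept sites, 17.1% of 1358 kept sites and 15.0% of 500 lost sites that carried CTCF in all 4 libraries. Where CTCF was in all 4 libraries and STAG2 was kept in both quiescent libraries, it was 0.622% of 18805 sites. Loss of STAG1 was thus more frequent where STAG2 was lost than where it was kept, both without and with CTCF. The STAG1 peaks at lost sites without CTCF were weaker, with median percentiles of 19.7 and 31.9 in the proliferating libraries. Those at lost sites with CTCF had 51.1 and 47.0. Where CTCF was in all 4 libraries and STAG2 was kept in both quiescent libraries, STAG1 peaks were stronger, at 72.2 and 79.2. The part of STAG1 strength in the shares with CTCF was not tested. With 20000 peaks per library the shares were 39.4% of 66 lost sites and 6.40% of kept sites. Sites are not replicates and this share has no test. Per the labels' protocols chromatin was divided among the antibodies, and which STAG1 and STAG2 libraries share chromatin was not given.

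The gap between lost and kept sites was present in every quintile of STAG1 strength. Sites without CTCF that held both STAG2 and STAG1 in both of their proliferating libraries were split into quintiles by their STAG1 fold percentile, a split chosen after the data were seen. In the weakest quintile STAG1 was lost at 80.0% of 70 lost sites and at 31.3% of 211 kept sites. In the middle quintile it was lost at 68.6% of 51 lost sites and at 20.5% of 263 kept sites. In the strongest quintile it was lost at 5 of 15 lost sites and at 17 of 353 kept sites. The mean over the 5 quintiles was 63.1% for lost, 44.6% for partly kept and 18.6% for kept sites.

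**Figure D2:**
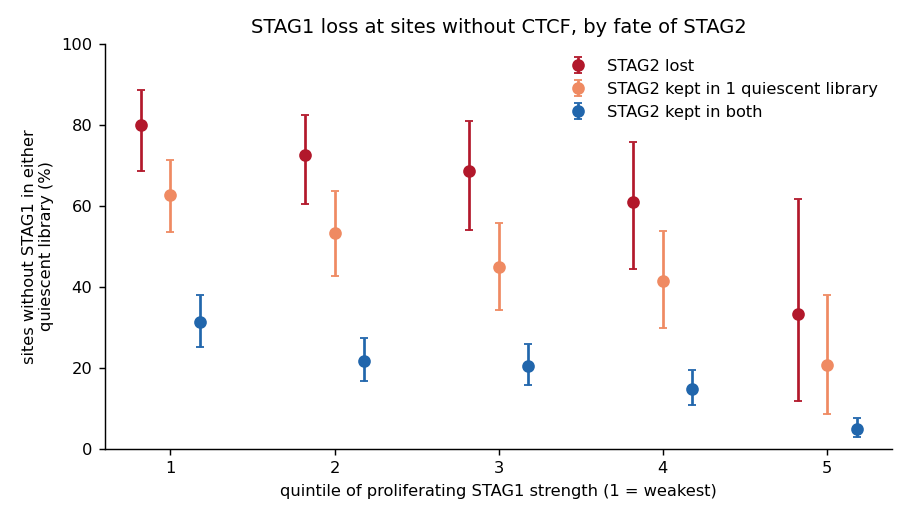
Share of sites without STAG1 in either quiescent library (vertical axis, %), among sites without CTCF that had STAG1 and STAG2 in both proliferating libraries, by quintile of proliferating STAG1 strength (horizontal axis). Points are shares for lost, partly kept and kept STAG2 sites, and bars are exact binomial 95% intervals. Lost sites lie highest in every quintile, at 80.0% in the weakest, against 31.3% of kept sites.

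**Figure D3:**
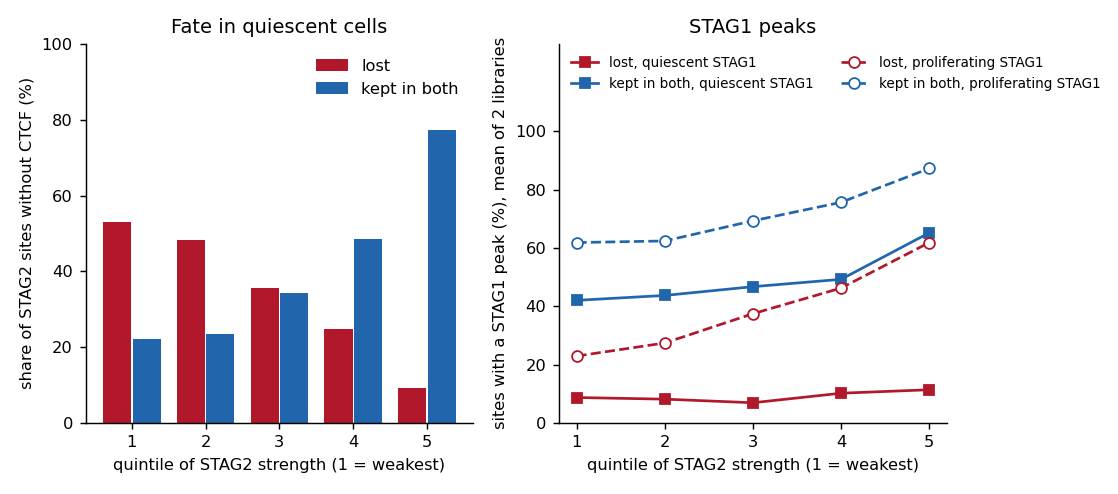
Left, share of STAG2 sites without CTCF (%) that were lost or kept in both quiescent libraries, by quintile of STAG2 strength in proliferating cells. Right, share of lost and kept sites with a STAG1 peak (%), mean of 2 libraries, filled squares quiescent and open circles proliferating. The share lost is 53.1% in the weakest and 9.06% in the strongest quintile, and STAG1 is below that at kept sites in every quintile.

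Within the lost sites, STAG1 was called more often in proliferating cells where STAG2 was stronger, while its quiescent share stayed between 6.88% and 11.3% over the quintiles. The mean STAG1 share was 8.68% in quiescent and 22.9% in proliferating cells in the weakest quintile, and 11.3% in quiescent and 61.9% in proliferating cells in the strongest quintile. Kept sites had 42.0% and 65.2% in quiescent cells in the same quintiles. Where STAG1 was present in proliferating cells, its summit lay at the STAG2 summit: the median distance was 54 bp for replicate 1 and 67 bp for replicate 2 at lost sites, and 54 and 55 bp at kept sites.

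Lost sites that carried CTCF were richer in STAG1 than those without. The 855 STAG2 sites with CTCF in all 4 libraries that were lost in quiescence had STAG2 percentiles of 37.3 and 33.7. They held STAG1 at 49.0% and 54.4% in quiescent cells, against 73.6% and 73.0% in proliferating cells. Lost sites without CTCF lay below them by 32.5 to 48.7 points in the 4 STAG1 libraries, with a mean of -41.9 points (exact permutation p = 0.12 by sign flips). STAG1 was thus still called in quiescent cells more often at lost sites with CTCF than at those without.

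The 10 strongest lost sites lay away from gene ends. Strength put a site inside Aig1 first, at chr10:13766977-13767547 in mm10. Aig1 encodes a hydrolase of fatty acid esters. Its STAG2 folds were 15.5 and 17.5 in the proliferating libraries, and its STAG1 folds were 8.48 in quiescent replicate 1 and none in quiescent replicate 2, against 17.0 and 15.0 in proliferating cells. STAG1 was thus called in 1 of the 2 quiescent libraries there. Next came sites nearest to Atp10b, a phospholipid flippase, Stk31, Tcte2 and Eea1, the tether of early endosomes, and sites inside Trub2, of the pseudouridine synthase family, D7Ertd443e, Ikzf2, which encodes the transcription factor Helios, and Hpcal1, a neuronal calcium sensor protein. Another lay nearest to Rasgrf1, an activator of Ras. Of these 10 sites 7 had no STAG1 peak in either quiescent library while 8 had STAG1 in both proliferating libraries.

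At gene ends, which here means within 1 kb of either end of a protein-coding gene, the strongest lost site was at Gmnn, the gene of geminin, which blocks the licensing of replication origins. It ran over chr13:24750743-24751801, 44 bp outside the end of the gene with the lower coordinate, which lies at 24751845. Its STAG2 folds were 10.0 and 11.7 in the proliferating libraries, and STAG1 had no quiescent peak, against folds of 7.86 and 5.67 in proliferating cells. Both cohesin forms were thus called there in both proliferating libraries and in no quiescent one. The next were at Pts, an enzyme of tetrahydrobiopterin synthesis, Hormad2, a protein of meiotic chromosome axes, Tmem161a, Por, the electron donor of cytochrome P450 enzymes, Susd1, Pus7, a pseudouridine synthase, Gm3776, Tns4, a tensin of focal adhesions, and Krt6b, a keratin of stressed epithelia. Of those with a start in the promoter table, Pts, Hormad2, Por, Susd1 and Pus7 had the site 7527 to 122571 bp from the nearest listed start, and Gm3776 had it 963 bp away. Tmem161a was the exception in STAG1, with folds of 8.98 and 14.5 in quiescent cells, against 6.49 and 12.0 in proliferating cells.

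**Figure D4:**
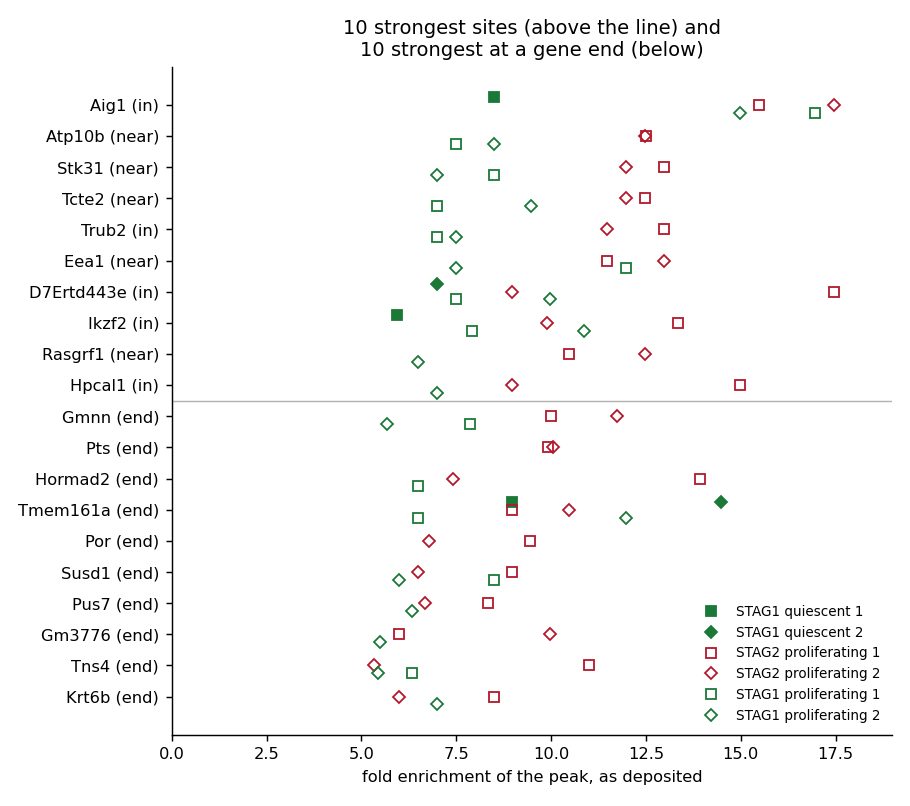
Fold enrichment as deposited (horizontal axis) of the peaks at the 10 strongest lost sites and at the 10 strongest at a gene end, named by the gene that holds them, has an end within 1 kb or is nearest. Filled green symbols are quiescent STAG1, open red symbols proliferating STAG2 and open green symbols proliferating STAG1, and a missing symbol is a library with no peak. Symbols of a site are set apart vertically only so that they do not hide each other. Quiescent STAG1 is missing at 16 of the 20 sites, and Tmem161a has the highest quiescent STAG1 peak, of fold 14.5.

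STAG1 ranged from full to absent among strong lost sites. The strongest with STAG1 in all 4 libraries lay nearest to Ackr3, an atypical chemokine receptor, at Tmem161a, and nearest to Utrn, the cytoskeletal protein utrophin, Slitrk1 and Gm52030. At the Ackr3 site STAG1 folds were 4.31 and 7.00 in quiescent cells, against 7.34 and 11.7 in proliferating cells. The strongest with no STAG1 peak lay at Pts and nearest to Vtcn1, an inhibitory ligand of T cells, Fam78b, Ppef2 and Tbx19. The Pts site had STAG2 folds of 9.91 and 10.1 in the proliferating libraries, so a firm STAG2 peak was possible with no STAG1 called.

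Lost sites were seldom at genes' starts. Of the 1824, 140 or 7.68% lay at a gene end (exact binomial 95% interval 6.50% to 8.99%), against 22.9% of the kept sites, 11.3% of the partly kept sites, 10.1% of lost sites with CTCF and 34.9% of all STAG2 sites of both proliferating libraries. The gap was present in every quintile of STAG2 strength, a split chosen after the data were seen. In the weakest quintile 11.6% of lost sites lay at a gene end, against 43.5% of kept sites. In the strongest 4.12% did, against 14.1%. The overlap with promoter windows was 53 sites, 2.91%, against 17.8% of kept sites and 1.87% of lost sites with CTCF. Gained sites without CTCF had 17.8%. When a gene end site could be placed against listed starts, 51.8% of 112 lost sites lay within 1 kb of a start, against 89.8% of 391 kept sites. Inside a protein-coding gene lay 51.8% of lost sites, against 57.8% of kept sites, and over 50 kb from any gene end lay 26.3%, against 23.9% of kept sites and 13.9% of lost sites with CTCF. These shares describe sites of 1 set of libraries and carry no test. Any overlap was counted, and lost sites were narrower, with a median width of 530.5 bp, against 745 bp of kept sites. The part of width in these shares was not tested.

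**Figure D5:**
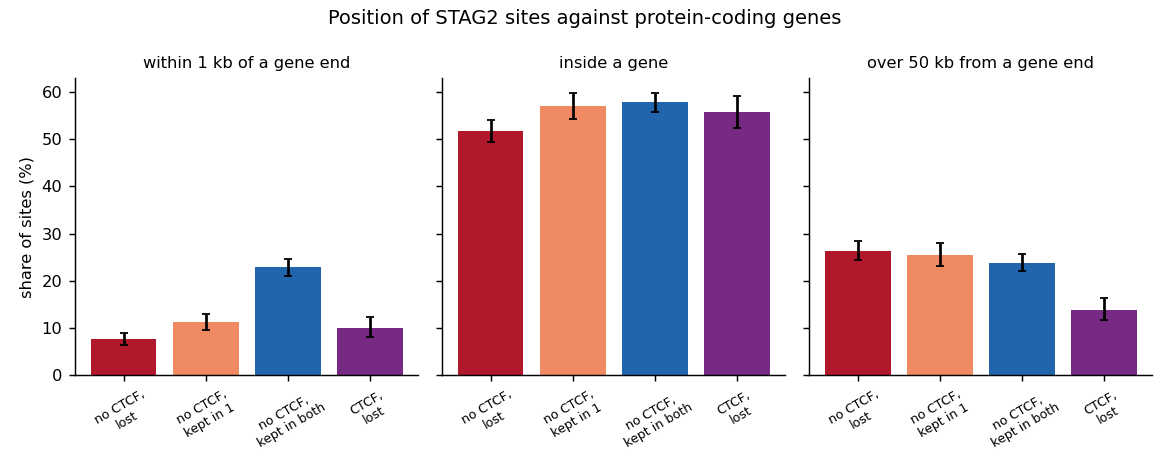
Share of sites (vertical axis, %) within 1 kb of a gene end, inside a gene, and over 50 kb from a gene end, for lost, partly kept and kept sites without CTCF and for lost sites with CTCF. Bars are shares and lines exact binomial 95% intervals over sites. Lost sites are at a gene end in 7.68% and kept sites in 22.9%.

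The promoters that lost sites did overlap were poorer in CpG than other promoters. The 54 windows averaged 8.81 CpG dinucleotides and 52.4% GC, against 17.0 and 57.2% in 424 windows at kept sites and 15.7 and 56.2% in all 16457 windows of coding genes. The KLF/SP box was in 31.5% of them, against 56.4% at kept sites and 47.3% of all. The ETS core was in 18.5%, against 32.1% at kept sites and 19.5% of all. The CHR element was more frequent, in 27.8% against 14.6% at kept sites and 15.8% of all. So was the AP-1 site (TGANTCA), in 14.8% against 7.08% at kept sites and 7.17% of all. Among other motifs, the forkhead core was in 7.41%, against 4.72% at kept sites and 2.96% of all. The E-box, in 12.96%, and the CCAAT box, in 48.1%, were above the 7.96% and 38.95% of all windows. At kept sites they were in 12.74% and 52.4%. The part of GC content and CpG in these motif shares was not tested. The CHR count is 15 windows, among them the Gm14434 and Gm4631 copies, and the AP-1 count is 8 windows. The E2F site was in 1 window, 1.85%, beside 3.18% of all. After the 3 strongest, the lost sites on promoters lay at Cyp11a1, the first enzyme of steroid synthesis, Oas1a, an oligoadenylate synthetase, Ccser2, Xaf1, Ndufaf1, an assembly factor of respiratory complex I, Slfn9 and Krtap1-5.

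Cell cycle genes bound by DREAM held a lost site about as often as all genes did. The lists of genes were written with earlier results of these data known, and a gene is counted when a lost site lies at its end or inside it, which held for 4.10% of 20665 protein-coding genes. Of 34 G2/M genes 1 was counted, 2.94%, which is Nuf2, described above. Of 34 G1/S genes 2 were counted, 5.88%, Gmnn and Cdc45, a subunit of the replicative helicase. The site inside Cdc45 had STAG2 folds of 7.49 and 5.34 in the proliferating libraries, with STAG1 in none of the quiescent libraries, against folds of 4.49 and 4.00 in proliferating cells. Within 50 kb the counts were 6 of 34 in each list, 17.6%, beside 14.0% of all genes. None of 13 subunits of DREAM and MuvB, none of 12 genes of cohesin and its regulators and none of 21 genes of CDK inhibitors and growth arrest held a lost site. These lists are too short to set such counts apart from the 4.10% of all genes. Within 50 kb of a lost site lay 4 of the 13, E2f4, Lin37, Lin9 and Rbbp4, 30.8% beside the 14.0% of all genes. The same held for 4 of the 12, Cdca5, Ctcf, Esco2 and Smc3, 33.3%, and for 3 of the 21, Cdkn1c, Gadd45a and Klf4, 14.3%. The DREAM and MuvB genes and the cohesin genes are long, with medians of 49.5 and 45.9 kb beside 17.5 kb of all genes. Any STAG2 site without CTCF lay within 50 kb of 30.8% and 33.3% of them, beside 32.3% of all genes. Of 7 and 8 pairs of such a site and a gene, 4 and 5 were lost, beside 32.3% of all pairs. These pairs are few.

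Genes of the urothelium had more lost sites around them, together with more STAG2 sites without CTCF of every kind. Of 23 urothelial differentiation genes 6 were counted, Ehf, an ETS factor of epithelia, Cdh1, E-cadherin, Krt8, a keratin of simple epithelia, Upk1a, a uroplakin of the umbrella cell membrane, and Grhl2 and Grhl3, grainyhead factors of epithelial barriers. That was 26.1% of the list, beside 4.10% of all genes. Within 50 kb 14 of the 23 had a lost site, 60.9% beside 14.0% of all genes. Yet 78.3% of these genes had any STAG2 site without CTCF within 50 kb, beside 32.3% of all genes, and of the 58 pairs of such a site and a gene 20, or 34.5%, were lost, against 32.3% of all pairs. The share lost was thus near the background, while the number of sites without CTCF was not. At Upk1a the STAG2 folds were 6.53 and 4.90 in the proliferating libraries, with no STAG1 peak in any library. Ehf had 8.19 and 6.04 in the proliferating libraries, also with no STAG1 peak.

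Of 17 basal urothelium genes 5 were counted, 29.4% beside 4.10% of all genes, Lama3, a chain of the laminin of the basement membrane, Cd44, the hyaluronan receptor, Egfr, the EGF receptor that erlotinib inhibits, Cdh3, P-cadherin, and Dst, a hemidesmosome linker. Within 50 kb 8 of the 17 had a lost site, 47.1% beside 14.0% of all genes, and 16 of 33 pairs, 48.5%, were lost, beside 32.3% of all pairs. These genes are long, with a median of 47.9 kb beside 17.5 kb of all genes. Krt5 and Krt6a, keratins of basal and stressed epithelium, are neighbours and enter the pairs with the same sites, 3 lost among 5 STAG2 sites without CTCF. Egfr also had 3 lost among 5, with 1 kept. The strongest of them, chr11:16769779-16770226 inside the gene, had STAG2 folds of 6.34 and 5.71 in the proliferating libraries and STAG1 in proliferating replicate 1 only, at 7.05. The Cd44 site had STAG2 folds of 4.79 and 9.90 in the proliferating libraries and no STAG1 peak.

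Of 32 genes of the EGF receptor and MAPK response 2 were counted, Egfr again and Ereg, the ligand epiregulin, 6.25% beside 4.10% of all genes. Within 50 kb 8 had a lost site, 25.0% beside 14.0% of all genes, among them Dusp5, a phosphatase of ERK, which had 3 lost among 4 sites. Yet of 47 pairs only 12, or 25.5%, were lost, beside 32.3% of all pairs. Kept sites lay within 50 kb of 53.1% of these genes, beside 18.1% of all genes. Of 20 targets of PPAR gamma, the receptor that rosiglitazone activates, 3 were counted, 15% beside 4.10% of all genes. Among them were Angptl4, an inhibitor of lipoprotein lipase, and Plin2, a lipid droplet coat protein. Within 50 kb 4 of the 20 had a lost site, beside 14.0% of all genes. Yet of 18 pairs only 4, or 22.2%, were lost, beside 32.3% of all pairs. Kept sites lay within 50 kb of 40% of these targets, beside 18.1% of all genes. These pairs are few. The Angptl4 site had STAG2 folds of 7.33 and 7.33 in the proliferating libraries and neither Angptl4 nor Plin2 had a STAG1 peak in any library. Of 23 genes of the cytoskeleton, focal adhesion and YAP targets 5 were counted, 21.7% beside 4.10% of all genes. They were Tead1, the DNA-binding partner of YAP, Cald1, caldesmon, Lats2, a kinase that restrains YAP, Tpm4, a tropomyosin, and Myh9, a nonmuscle myosin. The genes of this list are long too, with a median of 64.0 kb beside 17.5 kb of all genes. All 5 held the lost site inside, and the part of length in this count was not tested. Within 50 kb of a lost site lay 11 of the 23, 47.8% beside 14.0% of all genes. There too 78.3% of genes had a STAG2 site without CTCF within 50 kb, and 32.6% of 43 pairs were lost. Among markers of other cells, 1 of 12 fibroblast genes (Col1a1), 8.33%, none of 12 immune genes and none of 10 neuron genes were counted, beside 4.10% of all genes. Within 50 kb of a lost site lay 2 of the fibroblast genes and 2 of the immune genes, 16.7% of each beside 14.0% of all genes, and none of the neuron genes.

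Most genes with a lost site inside held a single one. That held for 678 genes, while 12 genes held 3, 8 held 4 and 2 held 5. Agap1, an Arf regulator, and Lpp, a focal adhesion protein, held 5 each, but they are long, at 440 and 599 kb. Il6ra, the IL-6 receptor, held 4 in 43.9 kb and Lgr6, a receptor for R-spondins, held 4 in 122 kb, and these were all of their STAG2 sites without CTCF. Hpcal1 held 4 of 6, with none kept in both quiescent libraries. The densest stretches of up to 200 kb were chr12:8781186-8865533, in and beside Sdc1, the epithelial syndecan, with 8 lost among 10 STAG2 sites without CTCF, and chr19:8982456-9091061, around Ahnak, a membrane scaffold, with 8 among 10. At the Sdc1 stretch 4 of the 8 sites had STAG1 in both proliferating libraries and 1 had STAG1 in a quiescent library. Another stretch, chr8:126743137-126911253, held 7 lost among 12 and overlapped no protein-coding gene.

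Lost and kept sites lay at like distances from other sites. The nearest site with CTCF in any library was a median of 5346 bp away from a lost site and 5366.5 bp from a kept site, and the nearest STAG2 site held in all 4 STAG2 libraries was 11121 and 11778 bp away. Another lost site lay within 50 kb of 29.3% of lost sites and of 28.7% of kept sites, against 15.1% of lost sites with CTCF. By chromosome the lost share of STAG2 sites without CTCF ran from 28.8% on chromosome 15 to 39.5% on chromosome 19.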

How the data were processed

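The submitters' processing notes name MACS2, BWA, HOMER, Picard and bcl2fastq and the mouse build mm10. Tool versions and read totals are not given in the sources used here. For each library the authors deposited 1 peak list. A deposited peak carries a fold enrichment, which is a ratio to background, and the -log10 of its p-value and of its q-value. Deposited peak names mark libraries and input as normalised, by a method not given. A sample titled input but labelled IgG was not analysed here. P-values measure the spread between libraries labelled biological replicates.

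Peaks of chromosomes 1 to 19 were merged at an overlap of at least 1 bp (Python 3.11.15, pandas 2.3.3, numpy 2.4.6). STAG1 shares were compared by exact permutation over libraries, and shares of sites have exact Clopper-Pearson 95% intervals (scipy 1.17.1). The site classes were tested on simulated lists. Alternatives were q, list length, overlap, summits, sex chromosomes, gene windows and leaving out each library. Gene positions came from RefSeq GRCm38.p6, whose gene table gives no strand, so both ends of a gene were used. No genome was used, so the planned motif search at summits was replaced by one over 300-base promoter windows.

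Sites were named by rank: the 10 strongest, the 10 strongest at gene ends, the 5 strongest with STAG1 in all or no libraries, up to 5 per gene list, the 5 genes and 3 stretches with most sites, and 3 at each edge of the rule. Members and lists were chosen with earlier results of these data known.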

Additional observations from a re-analysis of the deposited data

How the results depend on the processing

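Leaving out each library gave between 1824 and 7519 lost sites, with the highest counts, 7519 and 6100, without proliferating STAG2 replicate 1 or 2. The count was 1181 at a -log10 q of at least 5 and 526 with 20000 peaks per library. The STAG1 difference at lost sites, -24.2 points, stayed negative under all 19 alternatives (-32.0 to -10.5). The replicate block among them gives the same mean by construction, and the alternatives share most of their libraries. The gap to kept sites in proliferating libraries also stayed negative, between -58.5 and -31.6 points over the left-out libraries. The difference between the changes at lost and kept sites, -1.61 points, ran from -4.46 to 11.5 over the left-out libraries, and turned positive without proliferating STAG2 replicate 1 (11.5), proliferating STAG2 replicate 2 (7.78) and quiescent STAG1 replicate 2 (1.28); the cause was not tested.

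The share of lost sites that also lost STAG1 was between 58.3% and 81.3% over the left-out libraries, 39.4% with 20000 peaks per library and 63.1% within quintiles of STAG1 strength. The share at a gene end was 11.8% with 20000 peaks per library, 9.33% with summits widened by 100 bp, 11.4% with windows of 2 kb, 20.9% with windows of 5 kb, and between 7.48% and 8.94% over the left-out libraries. Inside genes the share was between 51.8% and 58.7% over the left-out libraries, the highest without proliferating STAG2 replicate 1, and 51.7% with 20000 peaks per library. The mean share found again in the other replicate number, 23.8%, was 28.6% at the stricter q; it was not run on sites of the proliferating lists alone, which hold no quiescent sites.

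With the replicate number as a block the differences were the same, -24.2 and -1.61 points (exact sign-flip permutation p = 0.5, the smallest that 2 pairs allow). The numbers did not pair the samples: deviations of same-numbered libraries correlated at -0.05 for STAG2, -0.09 for STAG1 and -0.25 for CTCF, for which no paired result was used. With 2 libraries a group no test could pass 0.05, and without read totals depth sets no limit that can be given.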
